A study of Mus musculus with 12 samples.

Results

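This account covers 7 genes of intestinal calcium and phosphate absorption in mouse small intestine: Slc34a2, Slc20a1, Slc20a2, Trpv6, S100g, Atp2b1 and Vdr. Members were all probe sets annotated with 1 of these symbols, which gave 9 of the 22690 probe sets on the array and 6 of the 12394 genes. Atp2b1, the basolateral calcium pump, had no probe set and is named only. RNA from full-length small intestine was measured on 12 Affymetrix mouse expression arrays, 3 in each of 4 groups of male mice aged 14 weeks. The groups were PPARα-null mice (129S4/SvJae) fasted for 24 hours, fed PPARα-null mice, wild-type mice (129S1/SvImJ) fasted for 24 hours and fed wild-type mice. The null line lacks PPARα, a fatty acid-activated transcription factor, in the whole body. The 2 genotypes came from different 129 substrains, named for the fasted arrays only (the fed arrays are labelled 129Sv), so genotype and substrain cannot be told apart. According to the methods, fasting began when the lights went on, and the gut was flushed and freed of fat and pancreas. Neither the time at which fed mice were killed nor whether an array pools mice is stated, so p-values measure the spread between these arrays. One label field of the wild-type fasted arrays reads knockout, whereas their title and strain read wild-type. The Ppara probe set read 10.96 to 13.2 on PPARα-null fasted arrays, 6.84 to 7.50 on PPARα-null fed arrays, 30.8 to 58.7 on wild-type fasted arrays and 19.9 to 35.9 on wild-type fed arrays, with its position relative to the disrupted exon not known here.

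The small intestine takes up calcium by a transcellular route, in which the channel Trpv6 admits calcium at the brush border, S100g (calbindin-D9k) carries it through the cytosol and Atp2b1 extrudes it, and by a paracellular route through claudin pores. Phosphate enters across the brush border through the sodium-phosphate cotransporter Slc34a2 (NaPi-IIb), while Slc20a1 (Pit1) and Slc20a2 (Pit2) are the widely expressed type III cotransporters. Vdr is the vitamin D receptor. It binds DNA together with retinoid X receptors, and vitamin D raises intestinal calcium and phosphate uptake.

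The promoters of 3 members are printed because these genes, named in the order Slc20a1, Slc34a2 and S100g, showed 3 different patterns across the 4 groups. Each is the 250 bases upstream of the gene start (RefSeq, GRCm38.p6), given in the gene's own direction. Slc20a1 lies at chr2:129198523-129198772 on the plus strand, Slc34a2 at chr5:53049103-53049352 on the plus strand and S100g at chrX:162964600-162964849 on the minus strand. Capitals mark matches, on either strand, to AGGTCA, the core hexamer shared by many nuclear receptor sites, or to GGTTCA, a hexamer of vitamin D receptor elements.
Slc20a1: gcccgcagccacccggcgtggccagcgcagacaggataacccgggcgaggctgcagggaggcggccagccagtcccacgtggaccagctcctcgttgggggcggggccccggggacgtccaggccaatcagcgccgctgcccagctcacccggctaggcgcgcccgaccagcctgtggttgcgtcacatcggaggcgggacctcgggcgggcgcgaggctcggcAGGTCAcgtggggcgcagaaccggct
Slc34a2: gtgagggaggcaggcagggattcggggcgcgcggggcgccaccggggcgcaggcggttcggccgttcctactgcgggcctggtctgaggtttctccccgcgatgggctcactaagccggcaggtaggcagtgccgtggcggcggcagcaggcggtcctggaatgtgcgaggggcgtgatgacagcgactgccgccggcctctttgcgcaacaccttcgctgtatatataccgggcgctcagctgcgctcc
S100g: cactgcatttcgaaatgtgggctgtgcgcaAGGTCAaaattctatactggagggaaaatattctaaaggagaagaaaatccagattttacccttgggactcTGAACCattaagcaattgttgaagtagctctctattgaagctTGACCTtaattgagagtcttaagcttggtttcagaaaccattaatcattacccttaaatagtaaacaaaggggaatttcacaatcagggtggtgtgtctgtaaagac
Slc20a1 had 1 AGGTCA, starting 26 bases before the gene start, and S100g had AGGTCA at 220 and 107 bases and GGTTCA at 149 bases. Slc34a2 had neither motif in this window. Slc20a1 has another RefSeq start, whose 250 upstream bases (chr2:129206846-129207095) are not printed. They held 1 AGGTCA, at 75 bases, and had a GC content of 50.8%. AGGTCA was in 14% and GGTTCA in 8.85% of 32851 RefSeq promoters of the same length. The GC content of the printed windows was 75.2% for Slc20a1, 69.6% for Slc34a2 and 38.4% for S100g, against a median of 52.4%. A match is a description of the letters, not evidence of binding.

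Values are GCRMA intensities as deposited, on a linear scale, and are compared only within a probe set. Fed and fasted arrays differed in their whole distribution, with median intensities of 11.1 to 11.3 on the 6 fasted arrays and 12.7 to 12.8 on the 6 fed arrays. Log2 changes upon fasting are therefore given less the common shift of −0.32, the median difference over probe sets above 20 in fed wild-type mice. Feeding state and array processing cannot be told apart in these changes, whereas differences between genotypes within a feeding state do not use the shift. A probe set was tested where its mean exceeded 20, and it passed with a fold above 1.3 and a limma p below 0.01 before adjustment. The gene list was chosen by function together with 1 measured value, the rise of Slc20a1 in fasted PPARα-null mice. All members in PPARα-null fasted against PPARα-null fed mice, and Slc20a1 wherever PPARα-null fasted arrays enter, are therefore described with no test. Because whole tissue was measured, fewer cells of a type and less RNA per cell cannot be told apart.

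Slc34a2, the brush-border phosphate cotransporter, read 211.8, 225.1 and 242.5 in PPARα-null fasted mice, against 1113, 945.1 and 943.5 in PPARα-null fed mice. In wild-type mice it read 425.3, 417.3 and 332.9 upon fasting, against 796.9, 606.2 and 299.5 in the fed state. As deposited, the PPARα-null groups lay at both ends of the scale and overlapped no other group. The wild-type groups overlapped through fed replicate 3. Less the common shift, wild-type fed replicate 3 (8.23, log2) lay just below PPARα-null fasted replicate 3 (8.24), so those groups overlapped. The order of group means was PPARα-null fed (1001 ± 97.4), wild-type fed (568 ± 251), wild-type fasted (392 ± 51.2) and PPARα-null fasted (226 ± 15.4; SD, n = 3 each).

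In PPARα-null mice Slc34a2 was lower by 1.83 on the log2 scale in the fasted than in the fed state, a 3.54-fold difference, given as a description. In wild-type mice the change was −0.12 ± 0.26 (SE, limma, adjusted p = 0.775). Without wild-type fed replicate 3 this wild-type change was −0.52 and passed (adjusted p = 0.0310), and without replicate 1 it was 0.19. The response to fasting differed between the genotypes by −1.71 ± 0.37 (PPARα-null minus wild-type, limma interaction, adjusted p = 0.00547), and ranged between −2.01 and −1.31 when each array was left out in turn. This test shares the PPARα-null arrays on which the choice of Slc20a1 rests. Of the 3 member genes tested for a difference in response (Slc34a2, S100g and Vdr), Slc34a2 alone passed, beside 27.9% of all 6107 genes tested (17.5% with a lower response in PPARα-null mice).

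Within a feeding state, the genotype differences of Slc34a2 had opposite signs. In fed mice it was higher in PPARα-null than in wild-type mice by 0.93 ± 0.26 (1.90-fold, limma, adjusted p = 0.172). It was the member that passed, on the unadjusted p, of the 4 genes tested, where 3.44% of all genes passed, 1.42% higher and 2.02% lower. Leaving out 1 array at a time, the difference ranged between 0.52, when wild-type fed replicate 3 was dropped, and 1.23, when replicate 1 of that group was dropped. The call was lost without PPARα-null fed replicate 1 (0.85, limma, adjusted p = 0.367), when only the 2 fed groups were fitted (adjusted p = 0.285) and with trended and robust variances (adjusted p = 0.279). In fasted mice it was lower in PPARα-null than in wild-type mice by 0.78 (SE 0.26), which narrowly missed the unadjusted threshold (limma, adjusted p = 0.0285), although the ranges did not overlap. None of the 3 member genes tested in fasted mice passed (0 by limma, 1 at an unadjusted p under 0.05), beside 36.8% of all genes, 20.3% lower. Slc34a2 passed in fasted mice without wild-type fed replicate 3, which enters only the estimate of spread (limma, adjusted p = 6.29e-04).

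**Figure D1:**
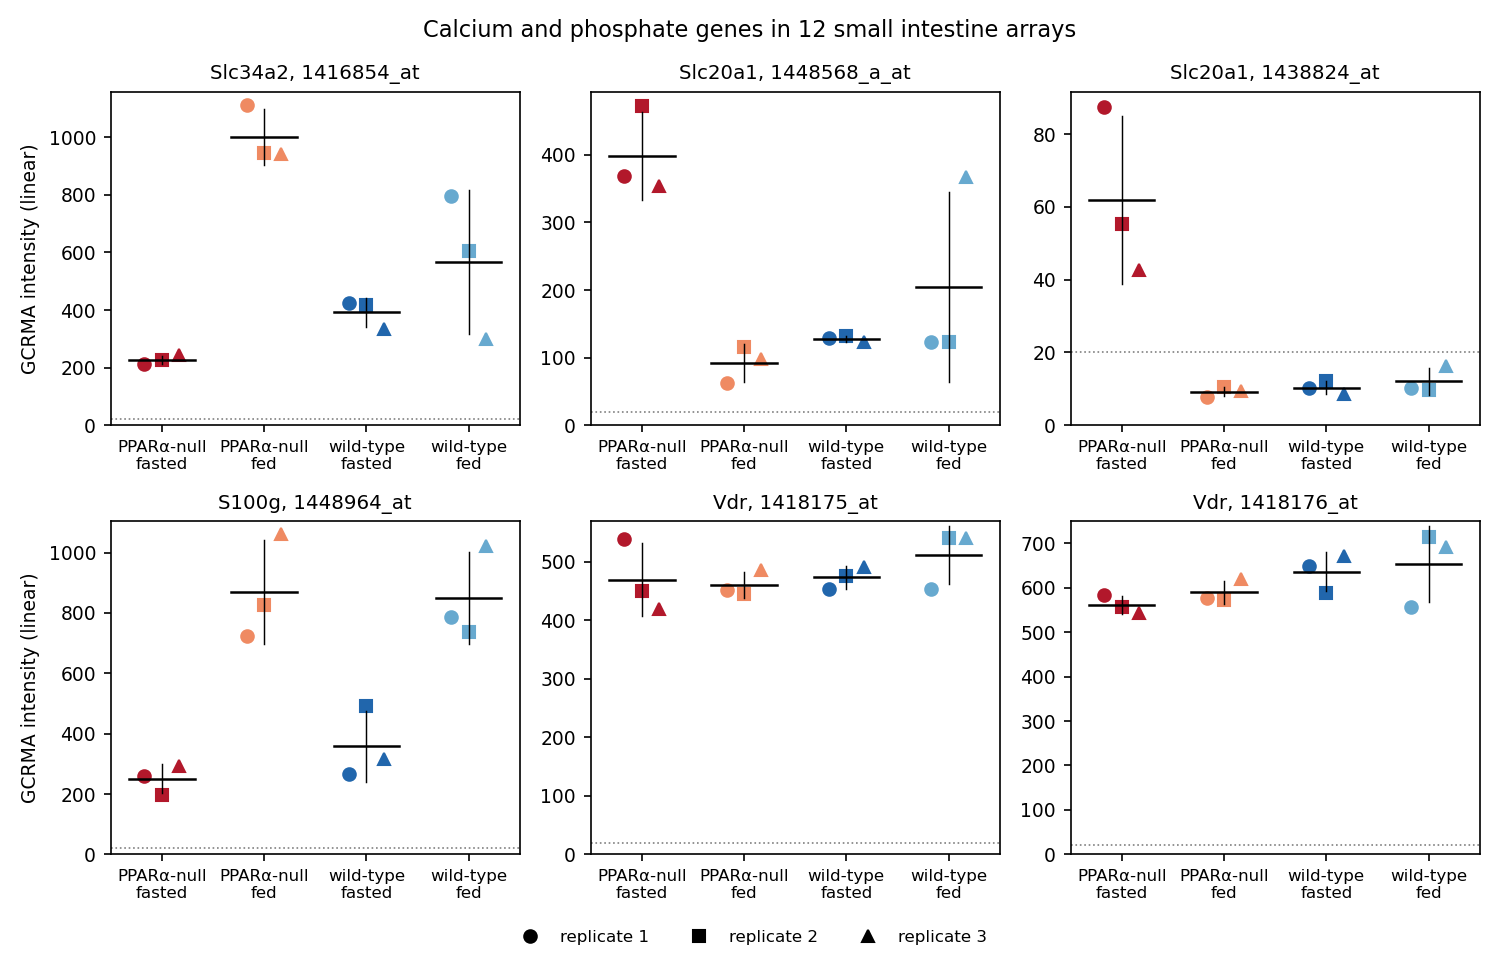
GCRMA intensity (linear axis from 0) of the 6 member probe sets with a group mean over 20 (dotted line), for 3 arrays per group. Symbols are replicates, horizontal bars group means and vertical lines SD. Slc34a2 was lowest and Slc20a1 highest in PPARα-null fasted mice, while wild-type fed replicate 3 read 299.5 for Slc34a2 and 366.9 for Slc20a1.

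Slc20a1, the type III cotransporter also known as Pit1, was measured by 2 probe sets. On 1448568_a_at it read 368.5, 472.7 and 354.0 in PPARα-null fasted mice, against 61.6, 116.2 and 97.4 in PPARα-null fed mice. Wild-type fasted mice read 128.2, 131.9 and 122.9, against 122.4, 123.4 and 366.9 in wild-type fed mice. As deposited, the PPARα-null fasted arrays stood above all others except wild-type fed replicate 3, which lay within their range. Less the common shift they read 8.78 to 9.20 (log2), above the 8.52 of wild-type fed replicate 3. On 1438824_at the PPARα-null fasted arrays read 87.6, 55.4 and 42.6, and the 9 other arrays between 7.84 and 16.2, with wild-type fed replicate 3 again the highest of the 9. In that probe set 3 of the 4 group means were under 20.

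As a description, Slc20a1 was 5.55-fold higher in PPARα-null fasted than in PPARα-null fed mice on 1448568_a_at (log2 change 2.47). Between fasted genotypes it was higher in PPARα-null than in wild-type mice by 1.63 on the log2 scale. No fold is given for 1438824_at, whose other group means were near the array's floor. In wild-type mice the change upon fasting of 1448568_a_at was −0.16 ± 0.35 (limma, adjusted p = 0.773), and 0.37 without wild-type fed replicate 3. In fed mice Slc20a1 was 0.501-fold of wild-type in PPARα-null mice on 1448568_a_at, a log2 difference of −0.997 ± 0.35 that did not pass (limma, adjusted p = 0.283). Without wild-type fed replicate 3 that difference was −0.47, and without wild-type fed replicate 1 it was −1.26 and passed (limma, adjusted p = 0.212). The ranges did not overlap, the nearest arrays being 116.2 in PPARα-null fed and 122.4 in wild-type fed mice.

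Wild-type fed replicate 3 stood apart for both phosphate cotransporters. Against the mean of the other 2 arrays of its group, Slc20a1 was higher by 1.58 on the log2 scale, the 20th largest deviation of 9370 probe sets on that array, and Slc34a2 lower by 1.21, the 29th largest. The array was otherwise close to its group, since 0.395% of probe sets deviated by more than 1, against 0.470% to 0.920% on the other arrays. Dbp, a clock-controlled transcription factor, and Tff2, a mucosal trefoil peptide, were looked up after these values were seen. On the more variable of its 2 probe sets Dbp read 29.3, 38.2 and 31.8 in PPARα-null fasted, 12.6, 12.8 and 11.7 in PPARα-null fed, 60.1, 141.4 and 129.5 in wild-type fasted, and 19.4, 21.4 and 123.0 in wild-type fed mice. Tff2 read 1282 on wild-type fed replicate 3, against 74.8 and 31.1 on the other wild-type fed arrays, and 392 to 4954 on the other 9 arrays. The highest group mean of Dbp was in wild-type fasted mice on each probe set. The part of either gene in the deviation was not tested.

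**Figure D2:**
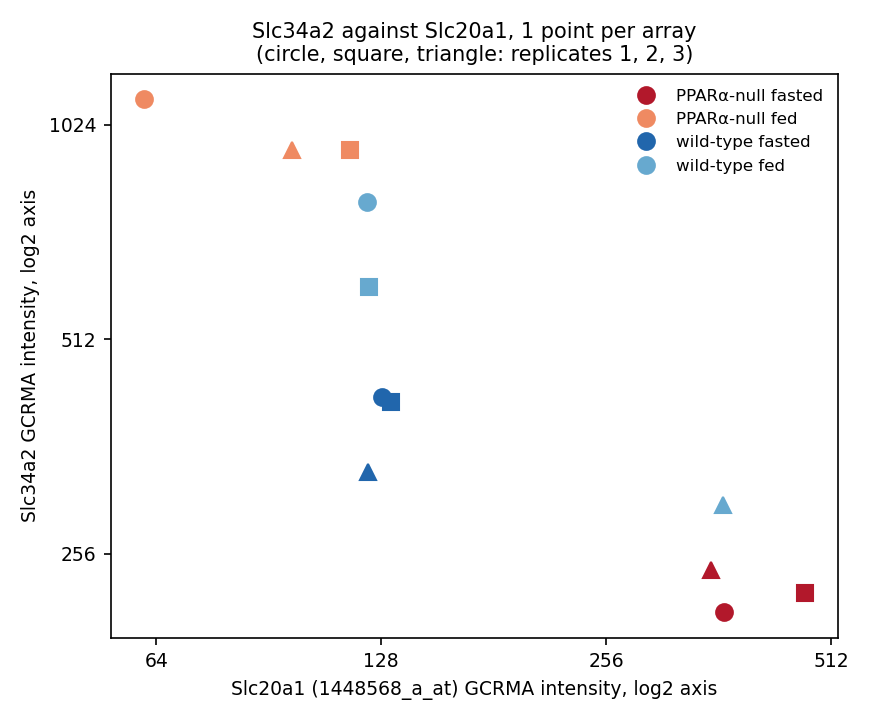
Slc34a2 intensity against Slc20a1 intensity (1448568_a_at), both on log2 axes, with 1 point for each of the 12 arrays coloured by group. The 3 PPARα-null fasted arrays and wild-type fed replicate 3 had high Slc20a1 (354.0 to 472.7) with low Slc34a2 (211.8 to 299.5).

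Slc34a2 and Slc20a1 ran in opposite directions across the arrays. Of 9021 probe sets above 20 in any group, Slc34a2 had the most negative correlation with Slc20a1 (1448568_a_at, log2 values over 12 arrays, Pearson r = −0.94). The r is a description: the points share 4 groups, and 4 arrays with Slc20a1 at 354.0 to 472.7 stood apart from 8 at 61.6 to 131.9. The probe sets most like Slc20a1 were those of Pcdh1 (r = 0.95), Osbpl1a (0.94), Cdr2 (0.94), Flywch1 (0.94) and Usp2 (0.93). Usp2, a deubiquitinating enzyme, read 115.3, 123.2 and 107.3 in PPARα-null fasted mice, against 20.2, 30.3 and 48.9 in PPARα-null fed mice. In wild-type mice it read 27.5, 49.1 and 49.1 upon fasting, against 42.1, 36.6 and 73.5 in the fed state, with fed replicate 3 the highest. S100g (r = −0.61) and Vdr (0.59 and 0.38) were less alike or opposite.

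S100g, the cytosolic calcium carrier, fell upon fasting in wild-type mice and was lower in fasted mice of both genotypes. It read 260.6, 198.4 and 294.1 in PPARα-null fasted mice, against 724.9, 824.9 and 1061 in PPARα-null fed mice. Wild-type mice read 265.3, 490.3 and 317.6 upon fasting, against 787.5, 737.9 and 1022 in the fed state. Every fasted array lay below every fed array, while within each feeding state the genotypes overlapped.

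The wild-type change of S100g was −0.97 ± 0.22 (1.95-fold lower, limma, adjusted p = 0.00866), and it passed in each alternative run (range −1.28 to −0.77). It was the member that passed of 4 tested in wild-type mice, where 22.8% of all 5821 genes passed and 9.95% were lower. As a description, the difference in PPARα-null mice was −1.48. The responses differed by −0.51 ± 0.32 (limma, adjusted p = 0.264, 95% interval −1.20 to 0.17), so a difference was not shown. Between genotypes the difference was 0.03 in fed mice (adjusted p = 0.976) and −0.48 in fasted mice (limma, adjusted p = 0.105). Markers of gut region were summed beside S100g, as deposited and so with the common shift left in. The 5 proximal small intestine markers summed to 2054 to 2281 in PPARα-null fasted, 2871 to 3216 in PPARα-null fed, 1840 to 2191 in wild-type fasted and 2408 to 2851 in wild-type fed mice. Less the common shift, the proximal markers differed among themselves. Gip averaged 10.92 in PPARα-null fasted, 10.95 in PPARα-null fed, 10.80 in wild-type fasted and 10.79 in wild-type fed mice (log2), whereas Slc40a1, the iron exporter, averaged on its brighter probe set 8.31, 9.11, 8.02 and 8.66 in the same order of groups. The 4 distal markers on the array summed to 9051 to 10247 in PPARα-null fasted, 11151 to 13354 in PPARα-null fed, 6354 to 7167 in wild-type fasted and 10982 to 12728 in wild-type fed mice. Less the shift, the distal markers differed among themselves too. Fabp6 averaged 12.82, 12.81, 11.61 and 12.81, and Mep1b 12.16, 12.25, 12.34 and 12.16, in the same order of groups. Pyy averaged 7.05, 6.51, 6.51 and 6.25, and Slc10a2 5.89, 4.91, 5.08 and 5.06. The part of gut region in the S100g values was not tested.

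Vdr, the vitamin D receptor gene at chr15:97854427-97908296, stayed within a narrow range. On 1418175_at it read 539.0, 449.9 and 419.6 in PPARα-null fasted, 451.4, 444.9 and 485.6 in PPARα-null fed, 452.8, 475.6 and 491.1 in wild-type fasted, and 453.9, 540.6 and 539.9 in wild-type fed mice. On 1418176_at the 12 arrays lay between 543.0 and 713.1. No contrast of Vdr passed. Less the common shift, the wild-type changes upon fasting were 0.21 and 0.28 (limma, adjusted p = 0.174 and 0.0609), and as deposited they were −0.11 and −0.033, so their sign depends on the scaling. The difference in response was 0.13 on 1418175_at (95% interval −0.19 to 0.45) and −0.04 on 1418176_at (−0.35 to 0.27).

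**Figure D3:**
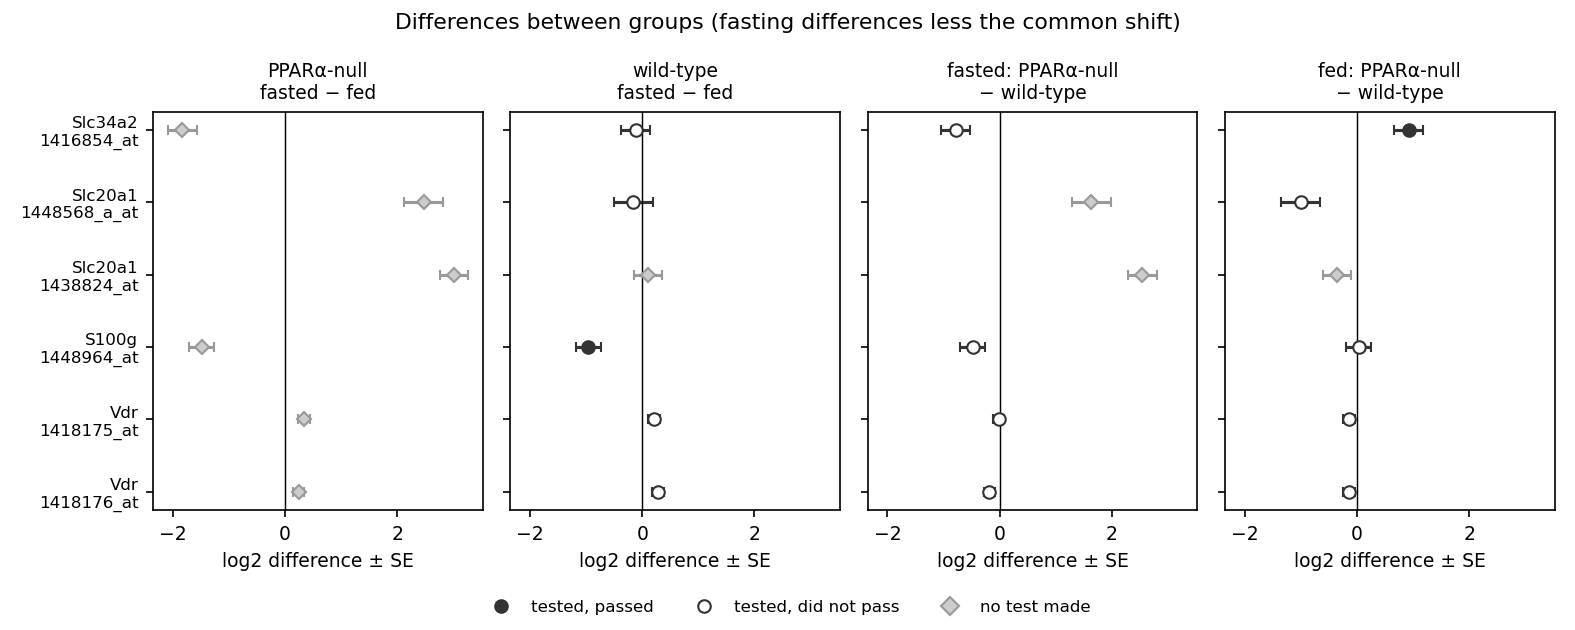
Log2 differences of 6 member probe sets in 4 contrasts, with SE bars. Filled circles passed the test, open circles did not, and grey diamonds were not tested. For 1438824_at all means but that of PPARα-null fasted mice were under 20, so its differences have no exact size. Slc34a2 in fed PPARα-null against fed wild-type mice (0.93) and S100g in wild-type mice upon fasting (−0.97) are the filled points.

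Slc20a2 (chr8:22476700-22569616) and Trpv6 (chr6:41620619-41636405) stayed near the array's floor, with no group mean over 20, and were not tested. Slc20a2, also known as Pit2, read 14.0, 20.5 and 17.1 on 1434235_at in PPARα-null fasted mice, and 9.20 to 12.5 on the other 9 arrays, without overlap. On 1451768_a_at it read 11.02 to 14.1 in PPARα-null fasted mice and 8.18 to 11.4 on the other 9 arrays. These ranges overlapped as deposited but not less the common shift. Trpv6, the apical calcium channel, read 6.93 to 10.02 over all 12 arrays.

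Exocrine pancreas genes separated the PPARα-null fasted arrays from each other. The summed intensity of the 9 pancreas markers on the array was 22339, 132.7 and 23452 on PPARα-null fasted replicates 1, 2 and 3, and 122 to 624 on PPARα-null fed arrays. It was 8833 to 19201 on wild-type fasted and 124 to 1279 on wild-type fed arrays. Replicate 2, the PPARα-null fasted array without this signal, had the highest Slc20a1 reading on 1448568_a_at (472.7) and the lowest S100g reading (198.4). On 1438824_at its Slc20a1 reading (55.4) lay between those of replicates 1 (87.6) and 3 (42.6). With replicate 2 alone for that group, the differences from PPARα-null fed mice were 2.72 for Slc20a1, −1.85 for Slc34a2 and −1.81 for S100g. Sums of marker intensities are as deposited and contain the common shift. The sum of 5 lymphocyte markers was 210 to 260 in PPARα-null fasted, 647 to 751 in PPARα-null fed, 466 to 490 in wild-type fasted and 776 to 889 in wild-type fed mice. The 3 crypt proliferation markers on the array summed to 985 to 1096 in PPARα-null fasted, 1861 to 2133 in PPARα-null fed, 1124 to 1405 in wild-type fasted and 1784 to 1960 in wild-type fed mice. Smooth muscle markers summed to 2749 to 3013 in PPARα-null fasted, 3859 to 4268 in PPARα-null fed, 1867 to 3048 in wild-type fasted and 4133 to 4933 in wild-type fed mice. Less the shift, these markers differed among themselves (log2 means, brighter probe set where a marker had several). Acta2 averaged 10.69, 11.01, 10.55 and 11.05 in the same order of groups. Tagln averaged 9.51, 9.75, 9.36 and 9.96, and Actg2 8.47, 8.89, 8.30 and 9.33. Myh11 averaged 9.56, 9.16, 9.16 and 9.45, and Des 6.19, 5.96, 5.77 and 6.33. The part of these cell types in the members' values was not tested. Absorptive enterocyte markers were high throughout, their sum being 31876 to 38290 over the 12 arrays.

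A list of 58 other genes of calcium, phosphate and vitamin D handling gave the surroundings of the members. Of these, 45 had a probe set and 21 could be tested in each contrast. The list was chosen with earlier results of these data known. It holds Cyp27a1 and Cyp3a11, which the paper reported as induced upon fasting in wild-type mice. Its counts beside all genes are therefore a description. Upon fasting in wild-type mice, 7 rose and 2 fell, beside 22.8% of all genes, and as deposited, without removing the shift, 2 were higher and 4 lower. In PPARα-null mice 11 rose and 4 fell (9 and 7 as deposited), beside 50.4% of all genes, 22.6% higher and 29.1% lower. The median log2 change of the list was 0.14 in wild-type and 0.40 in PPARα-null mice, against 0.03 and −0.02 over all probe sets tested.

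Among vitamin D genes, Cyp27a1, a mitochondrial hydroxylase of vitamin D and sterols, read 1311, 1128 and 1111 in PPARα-null fasted mice, against 259.0, 265.0 and 213.9 in PPARα-null fed mice. In wild-type mice it read 801.4, 407.5 and 665.6 upon fasting, against 207.9, 186.3 and 228.2 in the fed state. It rose upon fasting in both genotypes, by 2.58 in PPARα-null and 1.86 in wild-type mice (limma, adjusted p = 4.51e-07 and 1.18e-04). Rxra, a DNA-binding partner of Vdr and of PPARα, rose by 0.97 in PPARα-null and 0.67 in wild-type mice (limma, adjusted p = 2.61e-05 and 0.00219). As deposited, the wild-type change of Rxra was 0.36, under the fold threshold. Cubn, which in kidney takes up vitamin D bound to its carrier protein, was higher in fasted PPARα-null than in fasted wild-type mice by 0.68 (limma, adjusted p = 0.00857). Med1, a coactivator of nuclear receptors, fell on 1421907_at in PPARα-null mice, where it read 11.6, 13.2 and 14.6 upon fasting, against 31.0, 21.4 and 27.1 in the fed state (limma, adjusted p = 0.0182). On 1448708_at it changed by −0.10 and did not pass.

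Among phosphate genes, the phosphate exporter Xpr1 gave different answers on different probe sets. On 1450130_at it rose upon fasting by 1.28 in PPARα-null and 1.04 in wild-type mice (limma, adjusted p = 2.97e-05 and 0.00103). Fasted mice averaged 5.84 there in the PPARα-null and 5.68 in the wild-type group (log2, less the common shift). On 1426992_at Xpr1 averaged 7.44 in fasted and 7.80 in fed PPARα-null mice, and 7.99 in fasted and 7.63 in fed wild-type mice. On 1426992_at it read 128, 157.8 and 134.2 in PPARα-null fasted mice, against 200, 197.2 and 216.0 in wild-type fasted mice, a difference of −0.55 (limma, adjusted p = 9.99e-04). Akp3, an intestinal alkaline phosphatase, rose by 0.89 in PPARα-null and 0.52 in wild-type mice (limma, adjusted p = 7.57e-04 and 0.0433). As deposited, the wild-type change of Akp3 was 0.21, under the fold threshold. Slc9a3r1 (NHERF1), a scaffold that holds phosphate cotransporters at the apical membrane in kidney, was higher by 0.55 in fasted PPARα-null than in fasted wild-type mice on 1438115_a_at (limma, adjusted p = 0.00272).

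The paracellular claudins were lower in fasted PPARα-null mice. Cldn15, which forms cation pores, read 990.2, 919.3 and 998.0 in PPARα-null fasted mice, against 2045, 2137 and 2179 in PPARα-null fed mice. In wild-type mice it read 1491, 1805 and 1561 upon fasting, against 2007, 2108 and 2169 in the fed state. The PPARα-null fall was −0.81 ± 0.09 and the difference in response −0.75 ± 0.12 (limma, adjusted p = 7.73e-06 and 0.00101). Cldn2, another cation pore, fell by 1.73 in PPARα-null and by 0.81 in wild-type mice (limma, adjusted p = 1.52e-05 and 0.0125), and these responses also differed (−0.92, adjusted p = 0.0339).

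Sgk1, a kinase that regulates epithelial transporters, was highest in PPARα-null fasted mice, as Slc20a1 was. It read 4108, 3850 and 3870 in PPARα-null fasted mice, against 823.6, 1877 and 1040 in PPARα-null fed mice. Wild-type mice read 1485, 1966 and 1006 upon fasting, against 1281, 1131 and 1474 in the fed state. Sgk1 rose by 2.07 ± 0.27 in PPARα-null mice, and the response differed from that of wild-type mice by 1.60 (limma, adjusted p = 3.82e-05 and 0.00981).

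Atp2c1, a pump of the Golgi, fell on 1434386_at in PPARα-null and wild-type mice (limma, adjusted p = 1.79e-05 and 0.00357). Its fasted means there were under 20, so no size is given. It read 8.25, 10.2 and 7.98 in PPARα-null fasted mice, against 28.9, 28.8 and 24.2 in PPARα-null fed mice. On the brighter 1437738_at the changes were −0.38 in PPARα-null and 0.22 in wild-type mice and did not pass. Atp2a2, a pump of the endoplasmic reticulum, was higher in fasted PPARα-null than in fasted wild-type mice by 0.56 on 1416551_at (limma, adjusted p = 0.00662), while its brightest probe set 1427250_at differed by −0.10 (adjusted p = 0.454). Trpm7, a divalent cation channel, rose by 0.59 in PPARα-null and 0.50 in wild-type mice (limma, adjusted p = 0.00486 and 0.0316). As deposited, its changes were 0.28 and 0.18, both under the fold threshold.

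In fasted mice 13 of the 21 list genes passed between genotypes, 9 higher and 4 lower in PPARα-null mice, beside 36.8% of all genes. For a difference in response 7 of 21 (33.3%) passed, 3 higher and 4 lower, a share near the 27.9% of all genes. In fed mice none passed between genotypes (0 by limma, 3 at an unadjusted p under 0.05), beside 3.44% of all genes. Without PPARα-null fasted replicate 1, 8 passed in place of 13. The abundant list genes that passed in no contrast were S100a10, Slc25a3, Anxa2, Pdzk1 and Atp2a3. S100a10 and Anxa2, an adaptor pair that brings calcium channels to the membrane, changed upon fasting by 0.03 and −0.01 in PPARα-null and by 0.04 and −0.01 in wild-type mice (1416762_at and 1419091_a_at).

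**Figure D4:**
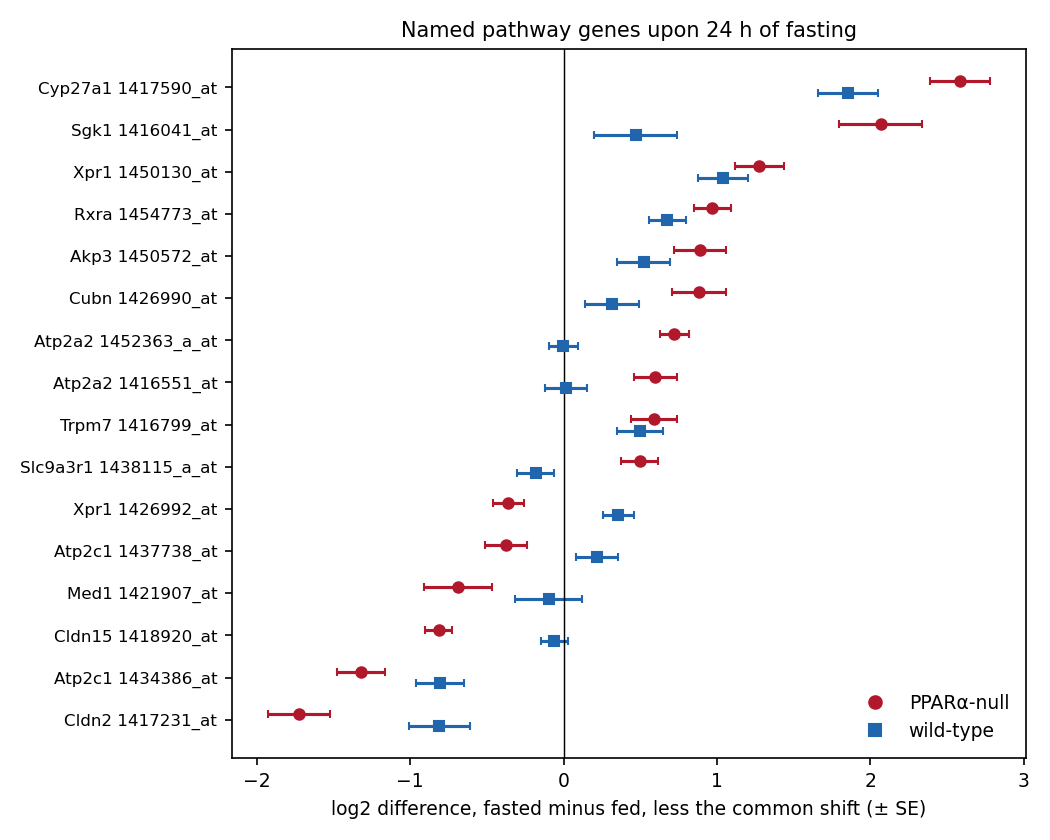
Log2 change upon 24 hours of fasting, less the common shift, for the named list genes in PPARα-null (red circles) and wild-type mice (blue squares), with SE bars. Sgk1 changed by 2.07 and 0.47 and Cldn15 by −0.81 and −0.06 in PPARα-null and wild-type mice.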

How the data were processed

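Total RNA of full-length small intestine was hybridised to 12 Affymetrix arrays. The authors normalised the arrays by GCRMA (version 2.20 in the submitters' processing notes) and deposited linear intensity values per probe set. Of 22690 probe sets, 20393 had 1 gene symbol, 691 several and 1606 none. Of the first, 20364 matched RefSeq by Entrez ID and 0 symbols changed. All per-sample columns were mapped to samples.

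Log2 intensities were fitted with limma 3.58.1 in R 4.3.3 (lmFit and eBayes), with 1 mean per group over all 12 arrays. The shift of −0.32 was removed from fasted arrays. Probe sets above 20 in wild-type fed mice were tested upon fasting, those above 20 in either group between genotypes, and those above 20 in any group for the difference in response. Benjamini-Hochberg adjustment ran over all probe sets kept, and the fits were tested on simulated data. An exact permutation test of 3 against 3 arrays cannot go below p = 0.1. Each group mean rests on 3 arrays, and the spread of a probe set was estimated from all 12 arrays together.

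Members and lists were chosen with earlier results of these data known. From the list of 58 genes, up to 5 with the largest rise and 5 with the largest fall were named per contrast, and up to 5 abundant uncalled genes. Sums of marker intensities were compared as ranges. Alternatives covered scaling, filters, thresholds, arrays in the fit, variance model, a replicate block and leaving out arrays.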

Additional observations from a re-analysis of the deposited data

Results flagged for a closer look

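The response to fasting differed between PPARα-null and wild-type mice by the limma interaction for 9 probe sets named here, which is what brought them forward. The differences (PPARα-null minus wild-type, log2) were −1.71 for Slc34a2 (adjusted p = 0.00547), 1.60 for Sgk1 (0.00981), −0.92 for Cldn2 (0.0339) and −0.75 for Cldn15 (0.00101). They were −0.72 for Xpr1 on 1426992_at (limma, adjusted p = 0.00383) and −0.59 for Atp2c1 on 1437738_at (0.0399), while no other probe set of either gene passed this test. Slc9a3r1 differed by 0.68 on 1438115_a_at (limma, adjusted p = 0.0125) and 0.38 on 1438116_x_at (0.0416), and Atp2a2 by 0.72 on 1452363_a_at (0.00212). The other Atp2a2 probe sets did not pass, the brightest, 1427250_at, differing by −0.06 (limma, adjusted p = 0.805). Such a difference passed for 27.9% of all genes tested. No test for outlying samples was made in groups of 3 arrays. Each array was compared with the others of its group as a description only.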

How the results depend on the processing

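Of the alternatives to the changes of single member probe sets, 811 stayed the same, 18 moved, 10 passed newly, 4 no longer passed and 12 changed sign. Where a test was made, the same meant the direction and call were kept. For changes with no test, it meant a difference smaller than the probe set's SD within groups, and a larger one counted as moved. Of the alternatives to counts, 183 stayed within 1.5 times and 25 did not. The causes were not tested.

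In wild-type mice upon fasting, the count of members that passed was 1, and 3 with no filter on level, since more probe sets were tested; leaving out arrays gave 1 to 2. In fed mice between genotypes it was 1, with 2 under quantile normalization and 0 under adjusted p under 0.05, only the groups compared, or trended and robust variances; leaving out arrays gave 0 to 2. The list genes there numbered 0, with 1 when only the groups compared were fitted, and 0 to 1 leaving out arrays. A run with PPARα-null fasted replicate 2 alone was added after seeing the data. Its lone array is assumed to vary like the other groups, so sizes of change are given from it, and its count of list genes is a description only. For the difference in response the count of members, without Slc20a1, was 1, with 2 under no filter on level. In fasted mice between genotypes the count, without Slc20a1, was 0, and leaving out arrays gave 0 to 1. It was 1 under no filter on level, adjusted p under 0.05, only the groups compared, or the replicate block. The list genes there numbered 13, with 8 to 13 leaving out arrays and 6 with replicate 2 alone.

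Signs changed for small differences. Upon fasting in wild-type mice Slc34a2 was 0.19 without wild-type fed replicate 1 (range −0.52 to 0.19 over arrays left out), Slc20a1 0.37 without replicate 3 (−0.41 to 0.37), and Vdr −0.11 and −0.033 as deposited. S100g between fed genotypes was −0.015 and −0.062 without wild-type fed replicates 1 and 2, and −0.12 without PPARα-null fed replicate 3 (range −0.12 to 0.17). Vdr (1418175_at) between fasted genotypes was 0.0082 and 0.058 without PPARα-null fasted replicates 2 and 3 and 0.0087 without wild-type fasted replicate 3, and the Vdr (1418176_at) difference in response was 0.074 leaving out fed wild-type array 1 and 0.0022 leaving out fasted wild-type array 3.

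The groups share replicate numbers, and the main fits treated the arrays as unpaired. Of 18 same-number pairs 5 had deviations correlated over 0.1 (range −0.15 to 0.22). Pairs with different numbers were not compared, so these values cannot decide whether the numbers pair the samples. With the replicate number as a block, Slc34a2 passed between fasted genotypes (−0.78, limma, adjusted p = 0.0199), and no other member call changed.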
